A study of Mus musculus with 12 samples.

Results

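The embryonic stem cell BAF complex was followed at the RNA level through the genes of 10 of its subunits in mouse embryonic stem cells (ESCs). The members were the rows of the deposited expression table that carry the symbols *Smarca4*, *Smarcc1*, *Smarcb1*, *Smarcd1*, *Smarce1*, *Arid1a*, *Arid1b*, *Brd9*, *Dpf2* and *Actl6a*, which are 10 of the 50978 genes listed. All 10 were among the 12914 genes tested. The libraries came from E14 ESCs and from 2 lines derived from them, and every line was kept in medium with 15% serum and LIF, the cytokine that holds mouse ESCs in self-renewal. The parental ESCs are wild type. ESC + H/F-PRAMEL7_WT (the WT line) expresses full-length PRAMEL7 and ESC + H/F-PRAMEL7_ΔN (the ΔN line) expresses PRAMEL7 without its N-terminus. The sample labels give this deletion as 50 amino acids. The text of the study gives a shorter one, so its exact length is uncertain here. Both transgenes carry HA and FLAG tags and are driven by CAG, a promoter active in most cell types. They were placed at *Rosa26* with Cas9, and each derived line is a clone. Each line has 2 RNA libraries, labelled as replicates. The p-values therefore measure the spread between libraries of a line, and effects of PRAMEL7 and of clonal derivation cannot be told apart. The comparisons ask whether PRAMEL7, a protein of the inner cell mass that binds the ubiquitin ligase scaffold CUL2, changes RNA levels, and whether its N-terminus, which holds the part that binds CUL2, is needed for the change.

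BAF complexes, the mammalian SWI/SNF remodelers, use ATP to slide and evict nucleosomes and so open enhancers and promoters to transcription factors. They are built around a dimer of SMARCC proteins that holds a common core, an ARID1 protein that docks the ATPase module, and an ATPase. Mouse ESCs assemble a characteristic form with SMARCA4 (BRG1) as the ATPase, a SMARCC1 dimer in place of the SMARCC1 and SMARCC2 mixture of many differentiated cells, and SMARCD1, ARID1A and ACTL6A, and this form is required for self-renewal. The noncanonical BAF complex holds BRD9 and lacks the ARID1 proteins, SMARCE1 and SMARCB1.

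Reads on genes numbered 18249148 to 19850005 per library, and the Pearson correlation across genes between the 2 libraries of a line was 0.9903 in parental ESCs, 0.9966 in the WT line and 0.9952 in the ΔN line. *Pramel7* had 0.258 and 0.217 CPM (reads on a gene scaled to the reads on all genes) in parental ESCs, 51.2 and 46.2 in the WT line and 397.7 and 430.9 in the ΔN line, so the 2 transgenes also differ in dose. The 12 ESC markers summed to 6975 to 8081 CPM in every library, but single markers changed. In the WT line 1 was called higher and 3 lower than in parental ESCs. In the ΔN line 2 were higher and 0 lower by limma (2 lower at an unadjusted p under 0.05, 0 by voom). Between the WT and the ΔN line 1 was higher and 4 were lower. The 8 primitive endoderm markers summed to 40.9 to 48.4 CPM in parental ESCs, 58.2 to 61.9 in the WT line and 74.9 to 81.7 in the ΔN line. Of the 5 tested, 3 were called higher and 1 lower in the WT line, and 2 higher and 1 lower in the ΔN line. Most of the sum was *Col4a1*, with means of 36.5 CPM in parental ESCs, 48.6 in the WT line and 68.6 in the ΔN line. The 8 fibroblast markers (*Dcn* and *Lum* at 0 throughout) summed to 52.2 to 71.4, 25.1 to 26.6 and 46.8 to 53.7 CPM in the same order, the 8 trophoblast markers to 68.4 to 105.3, 75.1 to 81.1 and 44.0 to 45.6 CPM, and the 7 neural markers (*Dcx* at 0, most of the sum from *Tubb3*) to 213.2 to 218.0, 283.5 to 286.8 and 181.6 to 205.3 CPM. Most of the fibroblast sum was *Thy1*, with means of 46.0, 21.1 and 40.1 CPM. All 3 tested fibroblast markers were called lower in the WT line than in parental ESCs. In the ΔN line 0 were called by limma (2 lower at an unadjusted p under 0.05, 0 by voom), and 2 were lower in the WT than in the ΔN line. Of the 4 tested trophoblast markers, *Tfap2c* was called lower in the ΔN line (mean 77.0 CPM in parental ESCs and 30.6 in the ΔN line), whereas *Eomes* (4.59 and 9.87) and *Hand1* (0.581 and 1.59) were called higher. The 8 markers of 2-cell-like cells stayed at 0.271 CPM or less in sum.

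Of the 10 subunit genes, *Arid1b* changed the most, to 2.28 times its parental mean in the WT line, and it was the one member called higher in each comparison. *Smarce1* was the one member called lower in both derived lines. The other 8 genes, among them the ATPase *Smarca4*, the scaffold *Smarcc1* and the major ARID subunit *Arid1a*, passed the test in none of the comparisons. Over the 6 libraries the highest value of *Arid1b* was 2.43 times its lowest and its coefficient of variation was 37.6%, whereas in the other 9 genes the highest was 1.13 to 1.33 times the lowest and the coefficient of variation ran from 4.20% (*Smarcd1*) to 11.6% (*Brd9*).

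A gene was called at a Benjamini-Hochberg adjusted p under 0.05 from limma on log2(CPM + 1), adjusted over all tested genes. In the WT line against parental ESCs, 1 of 10 members was called higher, where 8.71% of all tested genes were, and 1 of 10 lower, where 16.3% were. In the ΔN line against parental ESCs the counts were 1 of 10 higher against 6.25% of all genes and 1 of 10 lower against 13.6%. Between the WT and the ΔN line, 1 of 10 was higher in the WT line against 10.9% of all genes. In that contrast 0 of 10 were lower against 9.44%, with 1 member (*Brd9*) at an unadjusted p under 0.05 from limma and 0 by voom on whole reads. In these fits the shares are close to those of all genes. After a loess correction for length and GC content, 4 of 10 members were called higher in the WT line against 13.8% of all genes and 3 of 10 in the ΔN line against 14.3%, so the counts rest on this choice. The direction of calls among all genes moved with the scaling between libraries. Against parental ESCs, 1125 genes were higher and 2109 lower in the WT line, but 1508 and 1541 after quantile normalization and 1752 and 1444 after median-ratio scaling. Against the same libraries the ΔN line had 807 higher and 1759 lower, which became 1075 and 1228, and 1167 and 1327.

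The median log2 fold change of the members was 0.06 in the WT line and -0.04 in the ΔN line against parental ESCs, and 0.09 between the WT and the ΔN line. The medians of all 12914 genes were -0.08, -0.06 and -0.02. The members thus lay around 0 as a list, with *Arid1b* as the extreme value in all 3 comparisons. Comparisons with parental ESCs share the parental libraries, so both sets of values are given side by side and are not independent of each other.

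**Figure D1:**
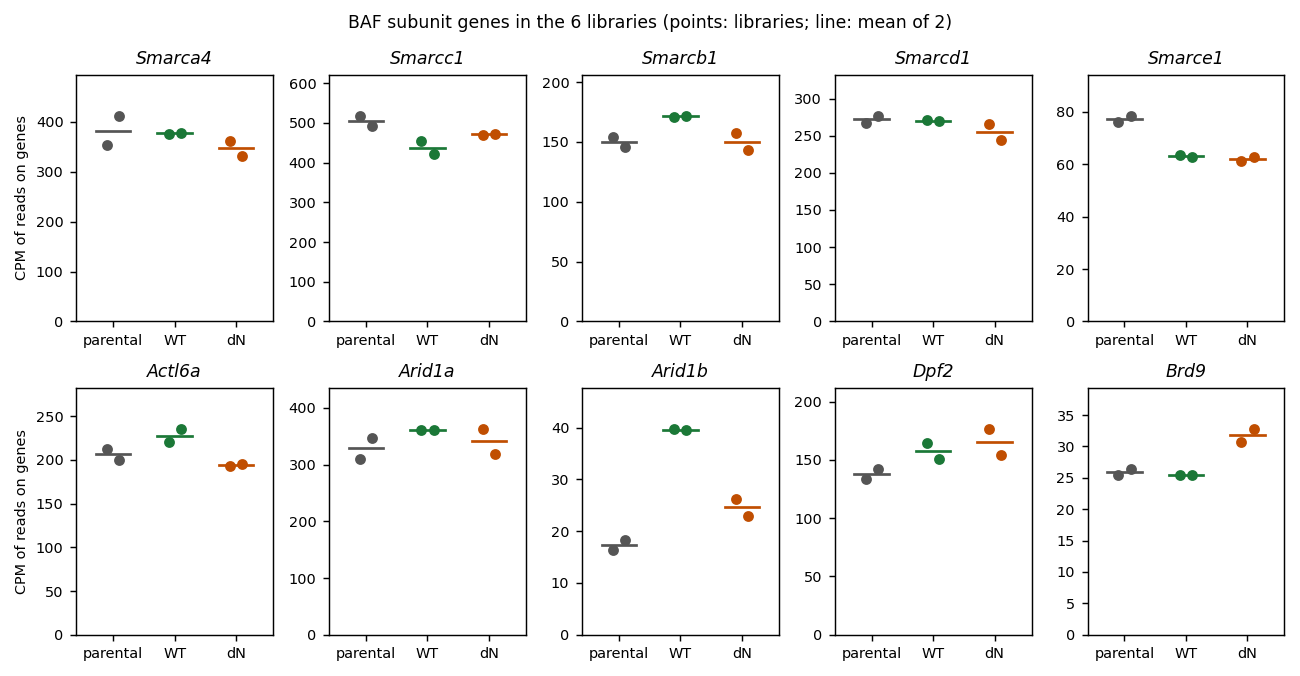
CPM (vertical axis, from 0) of the 10 BAF subunit genes in the 6 libraries; points are libraries, lines are means of 2, and dN stands for ΔN. *Arid1b* runs from 16.4 to 39.7 CPM with no overlap between the lines, *Smarce1* is higher in both parental libraries than in the other 4, and the other genes lie within 1.33-fold.

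ARID1A and ARID1B are alternative DNA-binding subunits of canonical BAF, and a complex holds one or the other. *Arid1b* lies on chromosome 17 from 4994332 to 5347656 on the plus strand (GRCm38), and *Arid1a* on chromosome 4 from 133679008 to 133756769 on the minus strand. The 250 bases before the most upstream start that GENCODE or RefSeq gives each gene are shown because this pair held the clearest contrast among the members. They were read from the GRCm38.p6 genome, 5′ to 3′ on the gene's strand, with every GGGCGG or its reverse complement (the GC box) in capitals.

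Arid1b, chr17:4994047-4994296, plus strand: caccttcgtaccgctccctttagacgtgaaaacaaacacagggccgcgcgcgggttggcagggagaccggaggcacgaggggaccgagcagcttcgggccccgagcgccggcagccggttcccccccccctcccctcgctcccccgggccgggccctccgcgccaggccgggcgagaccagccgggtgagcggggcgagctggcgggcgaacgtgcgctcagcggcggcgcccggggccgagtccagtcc

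Arid1a, chr4:133756770-133757019, minus strand: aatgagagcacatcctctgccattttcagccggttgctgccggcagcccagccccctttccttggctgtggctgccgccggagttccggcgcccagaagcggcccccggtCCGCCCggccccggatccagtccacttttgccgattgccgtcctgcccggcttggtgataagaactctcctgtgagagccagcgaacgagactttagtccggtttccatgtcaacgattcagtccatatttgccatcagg

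The *Arid1b* stretch held 34 CpG dinucleotides at 76.4% G and C, more CpG than 96.5% of 32851 RefSeq promoter stretches of the same 250 bases, whose median was 6. The *Arid1a* stretch held 18 CpG at 61.2%, more than 78.3% of them. The *Arid1a* stretch had 1 GC box and the *Arid1b* stretch had none, where 32.7% of all such stretches hold one. Neither held, on either strand, the CCAAT box, present in 33.8% of them, the TATA box (letters TATAAA, 12.4%) or the ETS core (letters CCGGAAGT, 2.88%). Among the RefSeq promoter windows of 300 bases (250 before to 50 after a start, GRCm38.p6), 11 windows belonged to 9 members, and *Smarce1* had no entry. These 11 windows held 20 to 42 CpG (median 33, against 7 over 32851 windows), and 10 of 11 held a GC box, where 35.7% of all windows do. None of the 11 held the TATA box, which 13.6% of all windows hold, nor the ETS core, which 3.89% hold, and 1 (*Dpf2*) held the CCAAT box, which 37.4% hold. The 9 members with a window thus share promoters rich in CpG. The *Arid1b* window held the most CpG (42), next to 40 and 39 in those of *Brd9*, which was not called. It held 1 GC box. The starts used for *Smarcc1*, *Actl6a* and *Arid1b* lie 14316, 2248 and 742 bases downstream of the GENCODE start of the gene. For the *Arid1a* window with 7 GC boxes the distance is 2784 bases.

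*Arid1b* had 16.4 and 18.4 CPM in parental ESCs (317 and 339 reads), 39.7 and 39.5 in the WT line (785 and 717 reads) and 26.3 and 23.0 in the ΔN line (524 and 435 reads). No library of one line overlapped with those of another, in the order parental, ΔN, WT. The log2 fold change on the log2(CPM + 1) scale was 1.15 in the WT line (SE 0.12, 95% interval 0.88 to 1.41, adjusted p = 0.000816), and the gene was 49th of the 12914 by p. It was 0.48 in the ΔN line (SE 0.12, interval 0.21 to 0.75, adjusted p = 0.0210). The difference between the derived lines, tested directly, was 0.67 in favour of the WT line (SE 0.12, interval 0.40 to 0.93, adjusted p = 0.00481).

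The rise of *Arid1b* in the WT line was called without any one of the 6 libraries, with log2 fold changes of 1.07 to 1.23. For the ΔN line the fits that leave out a library gave 0.39 to 0.57, and the call was lost without any one library of a derived line. The difference between the derived lines ran from 0.57 to 0.76 and was not called in every such fit. These fits leave a line with a single library, and the calls over all genes moved with them as well. Chromosome 17 as a whole had median log2 fold changes of -0.01, -0.03 and 0.04 in the 3 comparisons, and the 26 tested genes within 5 Mb of *Arid1b* had medians of 0.03, -0.05 and 0.10. The change was therefore not shared by its neighbourhood. The 7 neural markers also summed highest in the WT line. Most of that sum was *Tubb3*, a neuronal tubulin, at 190.0 CPM on average in parental ESCs and 263.2 in the WT line, which was the 1 of 6 tested that passed. *Map2* (log2 fold change -0.44) and *Nes* (-0.22) had values of the opposite sign and were not called, and *Dcx* was at 0. *Sox1* (means of 0.581 CPM in parental ESCs and 1.11 in the WT line), *Neurod1* (0.685 and 1.07) and *Pax6* (1.13 and 1.24) were higher on average, from few reads, and were not called. The part of such cells in the *Arid1b* values was not tested. In bulk RNA, more cells of a type and more RNA per cell cannot be told apart.

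*Arid1a*, the ARID subunit that predominates in ESCs, had 310.8 and 347.9 CPM in parental ESCs, 360.7 and 361.9 in the WT line and 362.9 and 319.2 in the ΔN line. Both WT libraries lay above both parental ones, and the ΔN libraries overlapped with both lines. The log2 fold changes were 0.14 (interval -0.08 to 0.35, adjusted p = 0.313), 0.05 (interval -0.16 to 0.26) and, between the derived lines, 0.09 (interval -0.13 to 0.30). Per kilobase of annotated exon, *Arid1a* made up 95.4% of the *Arid1a* and *Arid1b* RNA in both parental libraries (SD 0.013, n = 2), 90.9% in the WT line (SD 0.058, n = 2) and 93.8% in the ΔN line (SD 0.029, n = 2). The share of *Arid1b* was thus 4.58, 9.08 and 6.17% in the same order, a minor ARID in every line. The 3 lines did not overlap in this share, but 2 libraries against 2 cannot give an exact two-sided permutation p under 0.33, and no test was made. With the length of the longest principal transcript in place of all exons, the *Arid1a* share was 96.3% in parental ESCs and 92.7% in the WT line. All values per kilobase given here and below take the reads as exonic, as the study states, which was not checked.

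**Figure D2:**
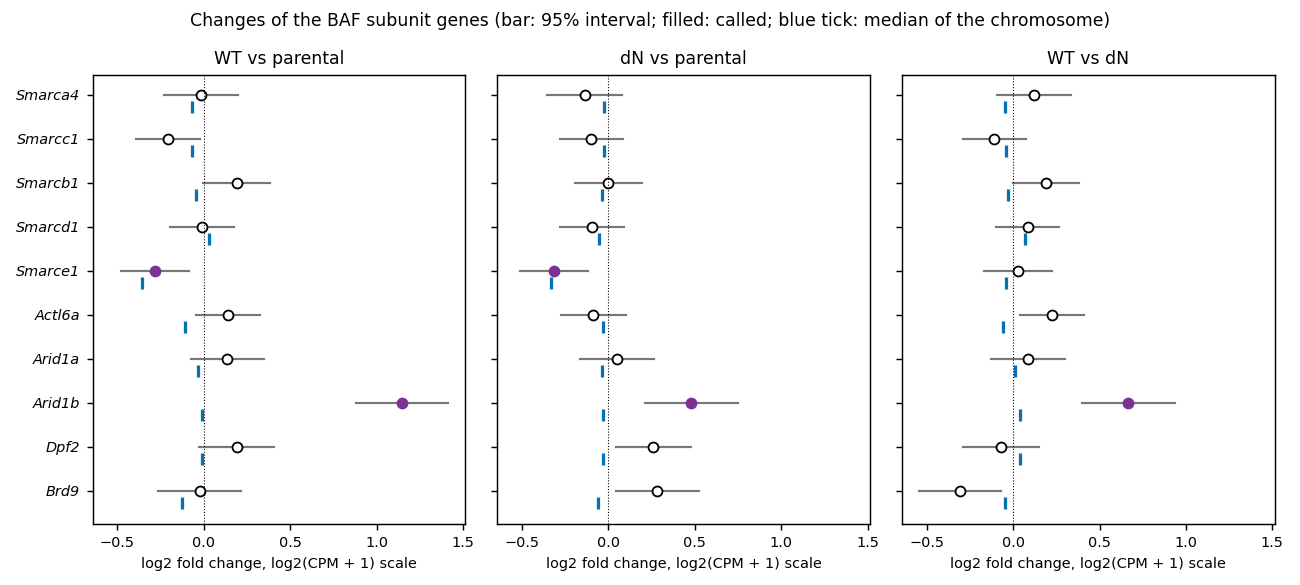
Log2 fold changes (horizontal axis, log2(CPM + 1) scale) of the 10 genes in the 3 comparisons; bars are 95% intervals, filled points passed the test, blue ticks are the median of all tested genes of the gene's chromosome, and dN stands for ΔN. *Arid1b* lies at 1.15, 0.48 and 0.67, away from its chromosome, while *Smarce1* at -0.28 and -0.31 lies at the median of chromosome 11 (-0.36 and -0.33).

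SMARCE1 (BAF57) is an HMG-box subunit of canonical BAF. *Smarce1* (chromosome 11 from 99209047 to 99231017, minus strand) had 75.9 and 78.5 CPM in parental ESCs, 63.6 and 62.8 in the WT line and 61.2 and 62.6 in the ΔN line. Both parental libraries were above the other 4, and the derived lines lay next to each other. The log2 fold change was -0.28 in the WT line (SE 0.09, interval -0.48 to -0.09, adjusted p = 0.0416) and -0.31 in the ΔN line (SE 0.09, interval -0.51 to -0.12, adjusted p = 0.0336), and 0.03 between them (interval -0.17 to 0.23). Genes of chromosome 11 were lower in both lines as a whole, with medians of -0.36 and -0.33, and the 203 tested genes within 5 Mb of *Smarce1* had medians of -0.35 and -0.31. Relative to the median of its chromosome, *Smarce1* was at 0.08 and 0.02, so it moved no more than its chromosome did. Neither call was firm: both were lost with the replicate block, with only the compared lines and after median-ratio scaling. Leaving out 1 library gave -0.31 to -0.26 in the WT line and -0.34 to -0.29 in the ΔN line. Most of these fits did not keep the call, but they leave a line with a single library and the calls over all genes moved as well.

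The ATPase and the scaffold showed little change. *Smarca4* encodes BRG1, the motor of the complex, and lies on chromosome 9 from 21616169 to 21704230. It had 352.6 and 412.3 CPM in parental ESCs, 375.5 and 378.4 in the WT line and 361.3 and 332.0 in the ΔN line. The parental libraries bracketed the WT ones, and one of the ΔN libraries lay below every other library. The log2 fold changes were -0.02 (interval -0.23 to 0.20), -0.14 (interval -0.35 to 0.08) and 0.12 (interval -0.09 to 0.34), so changes beyond 1.28-fold are outside all 3 intervals. Without the first parental library, *Smarca4* was called lower in the ΔN line (-0.25, adjusted p = 0.0383). The alternative ATPase gene *Smarca2* (BRM), which ESCs hardly express, had 1.08 CPM in both parental libraries (21 and 20 reads), 0.658 and 0.661 in the WT line and 0.301 and 0.422 in the ΔN line. *Smarca4* made up 99.9 to 100.0% of the pair per kilobase in every library.

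*Smarcc1* (BAF155, chromosome 9 from 110117708 to 110240178) had 517.9 and 491.3 CPM in parental ESCs, 453.1 and 420.4 in the WT line and 469.9 and 471.4 in the ΔN line. All 4 libraries of the derived lines lay below both parental ones, and those of the WT line lay lowest. The log2 fold changes of -0.21 (SE 0.08, interval -0.39 to -0.03, adjusted p = 0.0886) and -0.10 (interval -0.28 to 0.08) were not called, nor was the difference of -0.11 between the derived lines. In the WT line it was called lower without the second parental library (-0.25, adjusted p = 0.0400) and after quantile normalization (-0.25, adjusted p = 0.0488). *Smarcc2* (BAF170), the partner that takes its place in many differentiated cells, had 27.4 and 27.8 CPM in parental ESCs, 25.6 and 28.1 in the WT line and 19.4 in both libraries of the ΔN line. It fell in the ΔN line against parental ESCs (-0.49, SE 0.11, adjusted p = 0.0136) and was higher in the WT than in the ΔN line (0.45, SE 0.11, adjusted p = 0.0204), with -0.04 (adjusted p = 0.810) in the WT line against parental ESCs. *Smarcc1* made up 92.8% of the pair per kilobase in parental ESCs (SD 0.31, n = 2), 92.0% in the WT line (SD 0.87, n = 2) and 94.5% in the ΔN line (SD 0.012, n = 2), and only the ΔN line stood clear of the other two.

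The core subunits gave small values of both signs. *Smarcb1* encodes SNF5, which contacts the acidic patch of the nucleosome, and had 154.5 and 146.0 CPM in parental ESCs, 171.0 and 172.0 in the WT line and 157.2 and 143.5 in the ΔN line. The WT libraries lay above the other 4, which overlapped. Its log2 fold change of 0.19 in the WT line (SE 0.09, interval 0.00 to 0.38, adjusted p = 0.131) was not called, and that in the ΔN line was 0.00 (interval -0.19 to 0.19). After median-ratio scaling it was called higher in the WT line (0.29, adjusted p = 0.0425).

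*Smarcd1* (BAF60A) links transcription factors to the core and had 267.5 and 276.9 CPM in parental ESCs, 270.4 and 269.4 in the WT line and 265.2 and 244.3 in the ΔN line. It was the steadiest of the 10 genes, with log2 fold changes of -0.01 (interval -0.20 to 0.17), -0.10 (interval -0.28 to 0.09) and 0.08 (interval -0.10 to 0.27). Its paralogues moved. *Smarcd2* had 103.7 and 110.0 CPM in parental ESCs, 86.5 and 83.1 in the WT line and 76.2 and 73.5 in the ΔN line, with no overlap between the lines. It fell in the WT line (-0.33, SE 0.09, adjusted p = 0.0237) and in the ΔN line (-0.51, SE 0.09, adjusted p = 0.00416), and it lies on chromosome 11, whose medians were -0.36 and -0.33. *Smarcd3*, the BAF60 of heart and muscle, had 11.7 and 12.0 CPM in parental ESCs, 18.2 and 18.1 in the WT line and 16.7 and 15.0 in the ΔN line, and rose in the WT line (0.58, SE 0.12, adjusted p = 0.0105), with 0.39 (adjusted p = 0.0519) in the ΔN line. The share of *Smarcd1* among the 3 genes per kilobase was 67.8% in parental ESCs (SD 0.35, n = 2), 71.2% in the WT line (SD 0.45, n = 2) and 72.5% in the ΔN line (SD 0.53, n = 2), lowest in both parental libraries.

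*Actl6a* (BAF53A) encodes the actin-like subunit of dividing and stem cells, which neurons exchange for *Actl6b*. It had 212.9 and 200.3 CPM in parental ESCs, 219.9 and 235.3 in the WT line and 193.3 and 195.4 in the ΔN line. The WT libraries were the highest and the ΔN libraries the lowest, with no overlap. The log2 fold changes of 0.14 (interval -0.05 to 0.32), -0.09 (interval -0.27 to 0.10) and, between the derived lines, 0.23 (SE 0.08, interval 0.04 to 0.41, adjusted p = 0.0836) were not called. With only the compared lines in the fit, the difference between the derived lines was called (adjusted p = 0.0215 from limma). That fit called 18.3% of all tested genes higher in the WT line, against 10.9% in the joint fit of the 3 lines. *Actl6b* was at 0 in 5 of the 6 libraries and had 2 reads in the other.

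*Dpf2* (BAF45D), a PHD-finger subunit of canonical BAF that reads acetylated histone tails, had 133.2 and 142.4 CPM in parental ESCs, 164.5 and 150.3 in the WT line and 176.5 and 154.5 in the ΔN line. All 4 libraries of the derived lines lay above both parental ones, and the derived lines overlapped. Neither the log2 fold change of 0.19 (SE 0.10, interval -0.03 to 0.41, adjusted p = 0.176) nor that of 0.26 (SE 0.10, interval 0.04 to 0.48, adjusted p = 0.0924) was called, but the latter was called without the second parental library (0.31, adjusted p = 0.0348). *Dpf2* made up 85.0% of the *Dpf1*, *Dpf2* and *Dpf3* RNA per kilobase in parental ESCs (SD 1.05, n = 2), 85.1% in the WT line (SD 2.55, n = 2) and 88.4% in the ΔN line (SD 0.69, n = 2), and the ΔN libraries were the highest.

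*Brd9* encodes the bromodomain subunit that defines noncanonical BAF. It had 25.4 and 26.5 CPM in parental ESCs, 25.5 and 25.4 in the WT line and 30.8 and 32.8 in the ΔN line. The ΔN libraries lay above the other 4, and the WT and parental libraries could not be separated. The log2 fold changes were -0.02 (interval -0.26 to 0.21) in the WT line, 0.28 (SE 0.11, interval 0.04 to 0.52, adjusted p = 0.0931) in the ΔN line and -0.31 (SE 0.11, interval -0.55 to -0.07, adjusted p = 0.0698) between them. The last was called with only the compared lines in the fit (adjusted p = 0.0230), and the rise in the ΔN line after median-ratio scaling (0.36, adjusted p = 0.0385) and quantile normalization (0.36, adjusted p = 0.0457). With only the compared lines, 18.4% of all tested genes were called lower in the WT than in the ΔN line, against 9.44% in the joint fit. *Brd7*, the related bromodomain gene of the PBAF complex, had 111.9 and 108.0 CPM in parental ESCs, 86.9 and 87.8 in the WT line and 87.0 and 93.9 in the ΔN line, and fell in both (-0.33, adjusted p = 0.0237, and -0.28, adjusted p = 0.0493, SE 0.09 in both). The share of *Brd9* in this pair per kilobase was 15.1% in parental ESCs (SD 0.69, n = 2), 18.0% in the WT line (SD 0.15, n = 2) and 21.0% in the ΔN line (SD 0.15, n = 2), with no overlap between the lines. With the longest principal transcript as the length these shares were 26.2, 30.5 and 34.6%, over 1.5 times higher and in the same order.

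**Figure D3:**
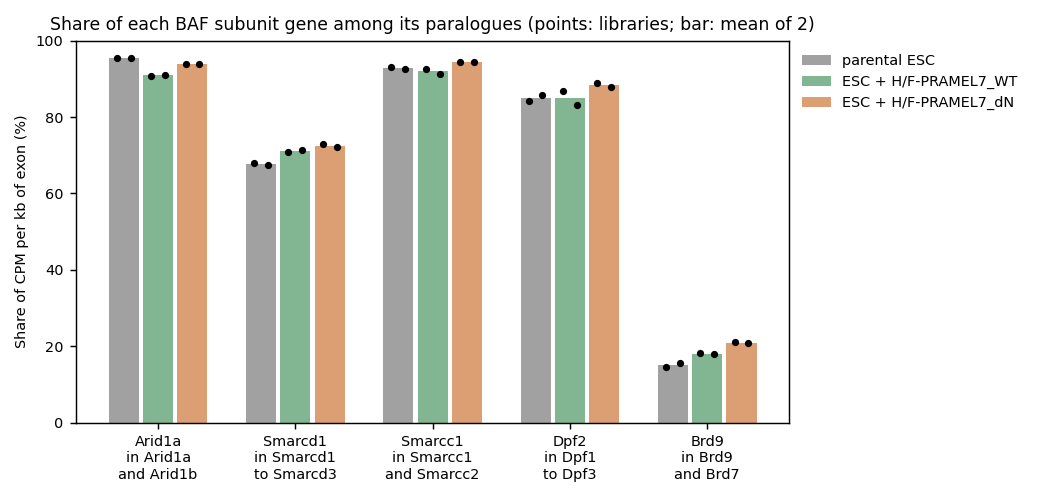
Share (vertical axis, percent of CPM per kb of exon, from 0) of *Arid1a*, *Smarcd1*, *Smarcc1*, *Dpf2* and *Brd9* among their paralogues; points are libraries, bars are means of 2, and dN stands for ΔN. *Arid1a* falls from 95.4% in parental ESCs to 90.9% in the WT line, and *Brd9* goes from 15.1% to 18.0 and 21.0% (26.2, 30.5 and 34.6% with the principal transcript length).

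Levels of different subunits were compared per kilobase of annotated exon, averaged over the 6 libraries. *Smarcd1* (66.0 CPM per kb), *Smarcc1* (60.1), *Smarca4* (56.9) and *Actl6a* (53.9) formed the top of the order. The range of each over the libraries overlapped with that of the next, although *Smarcd1* was above *Smarcc1* within each library. *Arid1a* (30.0), *Dpf2* (23.6) and *Smarcb1* (19.8) followed, again with ranges that overlapped between neighbours, but in this order within each library. *Smarce1* (10.1), *Brd9* (3.99) and *Arid1b* (2.16) came last, and the range of each was clear of those of its neighbours. With the longest principal transcript as the length, *Actl6a* (104.2 CPM per kb) and *Smarcb1* (94.8) came before *Smarcc1* (82.3) and *Smarcd1* (80.3), whereas *Smarce1* (23.1), *Brd9* (11.5) and *Arid1b* stayed last. The place of *Smarcb1* therefore rests on the transcript that is counted. Genes on the opposite strand share exon bases with *Actl6a* (*Mrpl47*, 452 of 3886 bases), *Smarcd1* (*Gm17349*, 287 of 4026, and *Gm34939*, 224), *Smarcc1* (*Dhx30*, 123 of 7832) and *Dpf2* (*Gm42067*, 79 of 6501), and the library kit does not mark the strand, so reads there cannot be assigned. A small RNA gene within *Smarca4* on the same strand (*Gm27373*) covers 99 of its 6475 bases. No annotated exon overlaps those of *Arid1b* or *Smarce1*.

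Across the 6 libraries, the 45 pairs of members had Pearson correlations on the log2 scale from -0.92 (*Smarcc1* and *Arid1b*) to 0.87 (*Smarca4* and *Smarcd1*). Among 8480 genes with a mean of at least 10 CPM outside the lists, the patterns most like that of *Smarca4* were those of *Zgpat* and *Rreb1*, which encode zinc-finger proteins (r = 0.99 for both), and of the imprinted *Peg3* (r = 0.99). *Rreb1* had 49.0 and 63.3 CPM in parental ESCs, 56.3 and 56.7 in the WT line and 51.5 and 45.6 in the ΔN line. As with *Smarca4*, most of this pattern is the gap between the 2 parental libraries, and the points share libraries and lines.

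The genes of the other SWI/SNF subunits were counted from a list of 20, of which 16 were tested. *Actl6b*, *Bcl11a*, *Bcl11b* and *Dpf3* had at most 12 reads in any library and were not tested. In the WT line against parental ESCs 2 of 16 were called higher (*Smarcd3* and *Bicra*) and 3 lower (*Pbrm1*, *Smarcd2* and *Brd7*). For the ΔN line 0 of 16 were called higher by limma (4 at an unadjusted p under 0.05, 0 by voom) and 6 lower, and by voom 5 lower. Between the derived lines 1 was higher in the WT line (*Smarcc2*) and 0 lower (1 at an unadjusted p under 0.05, 0 by voom). The shares of all tested genes given above (8.71 and 16.3%, 6.25 and 13.6%, 10.9 and 9.44%) stand against these counts. The median log2 fold changes were 0.13, -0.18 and 0.18, against -0.08, -0.06 and -0.02 for all genes.

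PBAF, the form with ARID2 and BRD7, is marked by PBRM1 (BAF180), a protein with several bromodomains. *Pbrm1* had 80.4 and 90.6 CPM in parental ESCs, 56.4 and 57.9 in the WT line and 65.2 and 70.0 in the ΔN line, without overlap between lines. It fell in both derived lines, by 0.57 on the log2 scale in the WT line (SE 0.10, adjusted p = 0.00431) and by 0.33 in the ΔN line (SE 0.10, adjusted p = 0.0406), and the difference of -0.24 between them was not called (adjusted p = 0.115). *Arid2* was at 60.8 and 72.4 CPM in parental ESCs, 69.9 and 62.4 in the WT line and 57.3 and 55.6 in the ΔN line, and was not called in any comparison. *Bicra* (GLTSCR1), a scaffold of noncanonical BAF beside BRD9, had 7.22 and 8.35 CPM in parental ESCs, 10.9 and 13.0 in the WT line and 8.73 and 7.81 in the ΔN line. It rose in the WT line (0.56, SE 0.15, adjusted p = 0.0265), while *Bicral*, its paralogue, was not called (0.13, adjusted p = 0.257). *Ss18l1*, a paralogue of the BAF subunit gene *Ss18*, was the third of the genes with the lowest adjusted p that fell in the ΔN line, at 3.86 and 4.54 CPM against 6.50 and 7.32 in parental ESCs (-0.61, SE 0.16, adjusted p = 0.0239). *Smarca2* was also called lower there (-0.62, SE 0.18, adjusted p = 0.0373), from 6 and 8 reads against 21 and 20.

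**Figure D4:**
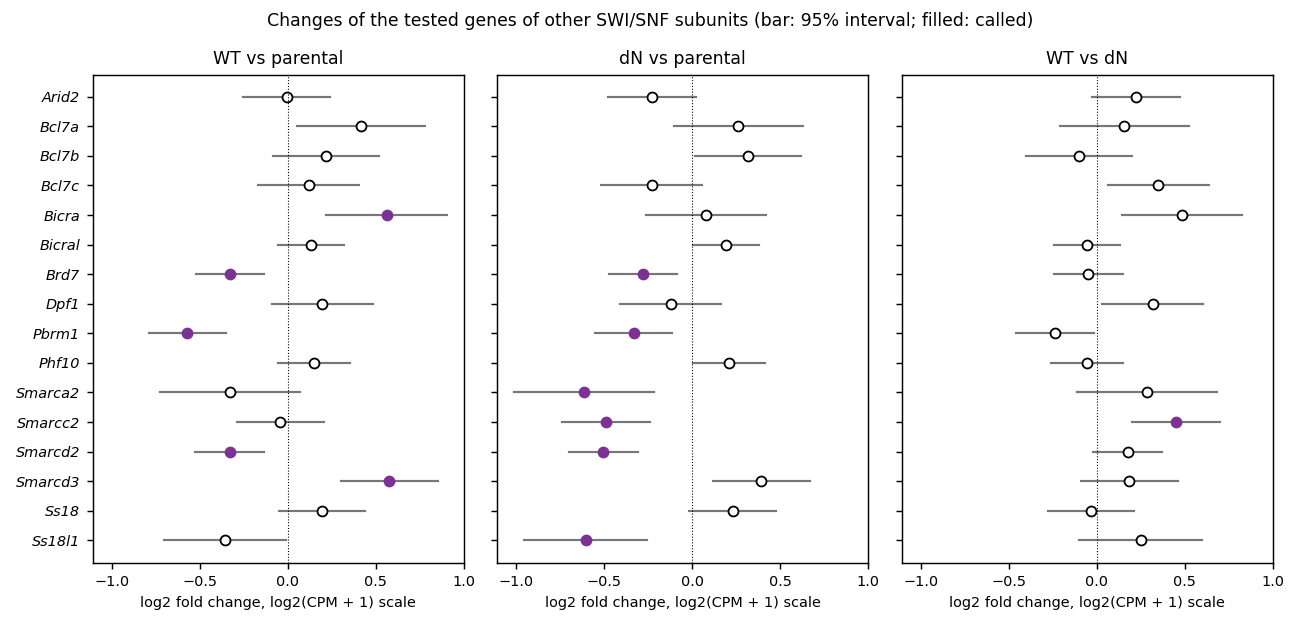
Log2 fold changes (horizontal axis, log2(CPM + 1) scale) of the 16 tested genes of other SWI/SNF subunits in the 3 comparisons; bars are 95% intervals, filled points passed the test, and dN stands for ΔN. *Pbrm1* lies at -0.57 and -0.33 against parental ESCs, *Smarcd3* at 0.58 and 0.39, and *Smarcc2* at 0.45 between the derived lines.

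Subunit genes of other remodelers were counted in the same way, against the same shares of all tested genes (8.71% higher and 16.3% lower in the WT line, 6.25 and 13.6% in the ΔN line, 10.9 and 9.44% between them). Of the 16 genes of the ISWI and CHD1 families, 0 were higher by limma in the WT line against parental ESCs (0 at an unadjusted p under 0.05, 0 by voom) and 3 were lower. The ΔN line had 2 higher and 1 lower, and between the derived lines 0 were higher by limma (0 unadjusted, 0 by voom) and 3 lower. *Bptf*, the large subunit of the NURF remodeler, had the lowest adjusted p of this list in the WT line (-0.59, SE 0.09, adjusted p = 0.00318) and in the ΔN line (-0.49, SE 0.09, adjusted p = 0.00651), and *Cecr2* between the lines (-0.80, SE 0.09, adjusted p = 0.000386). *Bptf* lies on chromosome 11. Of the 27 genes of the INO80, SRCAP and TIP60 complexes, 3 were higher and 2 lower in the WT line, 2 and 4 in the ΔN line, and 4 and 2 between the lines. The lowest adjusted p values were those of *Znhit1* in the WT line (0.51, SE 0.10, adjusted p = 0.00760), of the ATPase gene *Ruvbl1* in the ΔN line (-0.54, SE 0.09, adjusted p = 0.00288) and of *Ino80d* between the lines (-0.67, SE 0.09, adjusted p = 0.00126).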

How the data were processed

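RNA of 6 E14 ESC libraries was analysed, 2 for each of 3 lines, grouped by the sample labels. The stated methods give 3 replicates. The ChIP libraries were not analysed here, and 1 neural marker is not reported here. The authors sequenced polyadenylated RNA, removed ribosomal reads, trimmed, mapped with STAR to mm10 and deposited RPKM from exon coverage. The submitters' processing notes also name Bowtie2 2.3.4.3 and Subread 1.4.6-p4, with no role. The authors' 2 deposited comparison tables hold fold changes and p-values and were not used.

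Of 50978 table rows, 176 with repeated or date-like names, 2796 unmatched in GENCODE vM21 and 66 with several matches were left out, which left 47940. RPKM times the whole gene span gave whole reads (within 0.1) for 98.1 to 98.4% of values up to 20 reads, against 40.1 to 41.9% with exon length. CPM were therefore obtained as RPKM times span times a single factor shared by all libraries, so the authors' scaling is kept. Intervals and read numbers reflect 18249148 to 19850005 reads per library.

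Tests used limma 3.58.1 (R 4.3.3) on log2(CPM + 1), with its variance trend and a joint fit of the 3 lines. A gene entered if 2 or more libraries exceeded 1 CPM, and p-values were adjusted over every gene tested by Benjamini-Hochberg. The log2(value + 1) scale understates changes of low genes. Code was tested on simulated data. Tables and plots used python 3.11.15, numpy 2.4.6, pandas 2.3.3 and matplotlib 3.10.9. Text values cover the 10 members, paralogues, the 3 called genes with the lowest adjusted p among other SWI/SNF genes, 1 gene per other remodeler list and comparison, and 3 genes most like *Smarca4*. *Arid2*, *Bicral* and the neural, fibroblast, trophoblast and primitive endoderm markers were named after their values were seen. The remaining called genes of the SWI/SNF list were named to complete its counts. The members and lists were chosen with earlier results of these data known. Settings varied one at a time were the pseudocount (0.1 and 5), the filter (none, or 10 CPM), the replicate block, fits of the compared lines alone, 3 scalings, the trend, voom, RPKM without conversion, a loess correction for length and GC content (span 0.5), the median of the chromosome, the study's limits and leaving out each library. The loess correction with the block and the principal transcript length were added after seeing the data.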

Additional observations from a re-analysis of the deposited data

Results flagged for a closer look

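*Arid1b* differed between the derived lines under the same contrast with parental ESCs. The test of the difference itself gave a log2 fold change of 0.67 in the WT line over the ΔN line (SE 0.12, adjusted p = 0.00481 from limma), and both WT libraries (39.7 and 39.5 CPM) lay above both ΔN libraries (26.3 and 23.0 CPM). Over the alternatives the value ran from 0.57 to 0.76 and the adjusted p up to 0.0665. It was lost without the second ΔN library and without either WT library. *Pramel7* itself was higher in the ΔN line than in the WT line (397.7 and 430.9 against 51.2 and 46.2 CPM), so the sequence of the transgene and its dose cannot be told apart.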

How the results depend on the processing

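The rise of *Arid1b* in the WT line was called under all 19 alternatives that tested it (0.997 to 1.24, adjusted p up to 0.0216). Its call in the ΔN line held in 14 of 19 and that between the derived lines in 16 of 19. The calls of *Smarce1* held in 5 of 19 and 8 of 19.

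Members called higher in the WT line numbered 2 with median-ratio scaling, 4 with the loess correction for length and GC content, 4 with that correction and the block, and 0 with RPKM without conversion, which tests only 4 members and not *Arid1b*. All tested genes called higher there were 13.6, 13.8, 14.2 and 9.67% in the same order. In the ΔN line they numbered 2 with quantile normalization, 3 with median-ratio scaling, 3 with the loess correction, 3 with the correction and the block, and 0 with only the compared lines, with RPKM without conversion and with the study's limits (absolute log2 fold change above 0.58, unadjusted p under 0.05). Of all genes, 8.32% were higher there with quantile normalization, 9.05% with median-ratio scaling, 14.3% with the loess correction and 14.8% with the correction and the block. With only the compared lines the share was 4.10%, and with RPKM without conversion 5.84%. Under the study's limits 406 genes were higher there. The loess correction gave *Smarcb1* (0.32), *Dpf2* (0.28) and *Actl6a* (0.24) beside *Arid1b* in the WT line, and *Brd9* (0.39) and *Dpf2* (0.36) in the ΔN line. Members called lower in the WT line numbered 0 with no filter, with the replicate block, only the compared lines, upper-quartile scaling, median-ratio scaling, no trend, RPKM without conversion, the loess correction with and without the block, and the study's limits. All tested genes called lower there were 5.12% with no filter and 5.71% with RPKM without conversion. They were 11.2 to 14.8% in the other adjusted fits of this list, and the study's limits gave 1163 genes. For the ΔN line the members called lower numbered 0 with the replicate block, only the compared lines, quantile normalization, median-ratio scaling, no trend, RPKM without conversion, the loess correction with and without the block, and the study's limits. All tested genes called lower there were 5.71% with RPKM without conversion and 9.31 to 12.6% in the other adjusted fits of this list. The study's limits gave 1184 genes. Between the derived lines, the higher numbered 2 with only the compared lines, 2 with the loess correction, 2 with the correction and the block, and 0 with RPKM without conversion, and the lower numbered 1 with only the compared lines. All tested genes called higher there were 18.3, 11.4, 11.6 and 6.82% in the same order. With only the compared lines, 18.4% of all tested genes were lower. Leaving out 1 library leaves a line with a single library. The number of members called then moved in every comparison, as did the calls over all genes.

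Some uncalled values near 0 changed sign. In the WT line, *Smarca4* was 0.0091 with upper-quartile and 0.082 with median-ratio scaling, *Smarcd1* 0.014 and 0.087, and *Brd9* 0.00068 and 0.071, with 0.045 after quantile normalization and 0.12 after the loess correction with and without the block. *Smarce1* was 0.017 there after the loess correction with and without the block, and 0.075 in the WT line and 0.017 in the ΔN line relative to its chromosome. In the ΔN line, *Smarcb1* was 0.013 with quantile, 0.023 with upper-quartile and 0.083 with median-ratio scaling, 0.00011 without conversion and 0.11 after the loess correction with and without the block. There, *Smarcc1* was 0.013 and *Actl6a* 0.00032 after the loess correction with and without the block. Between the derived lines that correction, with and without the block, gave -0.039 for *Smarcd1* and -0.051 for *Arid1a*. Leaving out 1 library gave ranges of -0.13 to 0.10 for *Smarca4*, -0.037 to 0.013 for *Smarcd1* and -0.053 to 0.0048 for *Brd9* in the WT line, -0.065 to 0.065 for *Smarcb1* and -0.043 to 0.14 for *Arid1a* in the ΔN line, and -0.0065 to 0.18 for *Arid1a* and -0.17 to 0.026 for *Dpf2* between the lines. The cause of these changes was not tested.

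Deviations of same-numbered libraries correlated at 0.21, -0.25 and -0.10 between lines. With a single difference per line, these values cannot show whether the replicate numbers pair the samples. With the replicate block, *Arid1b* stayed called in all 3 comparisons (1.15, 0.48 and 0.67) and *Smarce1* in none, and all tested genes gave 955 higher and 1774 lower in the WT line and 652 and 1460 in the ΔN line. With 2 libraries per line, the 95% intervals of the members reach 0.18 to 0.27 on the log2 scale to either side of each fold change.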
